A study of Mus musculus with 12 samples.

Results

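Fibroblasts of the skin between hair follicles carry a set of surface and secreted markers, and 10 of them were followed here in RNA sequencing libraries of sorted dermal papilla cells: Dpt, Dlk1, Gpx3, Pi16, Cd34, Dpp4, Ly6a, Clec3b, Mfap5 and Thy1. These 10 genes were taken as a list from the 25887 genes of the deposited tables, chosen with earlier results of these data known. All 10 were present with reads in each of 12 libraries. The libraries form 4 groups of 3 from mouse: females of wild type (WT) or with a gain-of-function form of Smo (Smo*) at postnatal day 20 (P20), labelled telogen, when follicles rest, and males of both genotypes at postnatal day 28 (P28). At P28 the WT libraries are labelled Anagen VI and the Smo* libraries anagen I-III, the late and early growth stages. Genotype and growth stage therefore differ together at P28, and age, sex and stage differ together between P20 and P28, so these cannot be told apart. Smo transduces the Hedgehog signal across the cell membrane. The mutant is described as specific to the dermal papilla, with no promoter or Cre line given in the sources used here. Whether the libraries of a group are separate animals is stated by no label, and p-values then reflect only how far these libraries vary, which may be technical.

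The upper, papillary dermis and the lower, reticular dermis are built by fibroblasts that descend from a common embryonic progenitor, which also gives rise to the dermal papilla. In adult skin, Pi16 and Dpp4 mark fascial and adventitial fibroblasts that act as a reserve for other fibroblasts, Dlk1 marks the reticular and preadipocyte lineage of young skin, and Dpt encodes a matrix protein of the dermis. Several of these genes are shared with other cells: Cd34 and Ly6a are also made by endothelial and stem cells, Cd34 by hair follicle bulge keratinocytes, and Thy1 by T cells and neurons. In sorted bulk samples, fewer cells of a type and less RNA per cell cannot be told apart.

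As a check of the genotype, Smo itself had 5037 to 6144 normalized counts in the 6 WT libraries and 6351 to 8694 in the 6 Smo* libraries. The Hedgehog targets Gli1 and Ptch1 rose in Smo* at both ages (Gli1 by 1.63 and Ptch1 by 2.87 on the log2 scale at P20, with limma adjusted p of 0.0449 and 0.0179, and by 1.52 and 1.51 at P28, with 0.000237 and 0.0152). Libraries held between 36323058 and 48926831 reads on genes. The papilla marker Corin, a membrane protease, was at 416 to 766 normalized counts in P20 WT and 69681 to 79819 in P28 WT. The library labelled P28 Smo* replicate 3 stood apart: its 17 dermal papilla genes summed to 12577 normalized counts per kb of exon against 50465 and 81180 in the other P28 Smo* libraries, and its adipocyte genes to 11188 against 309 and 81.4.

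The stretches before the starts of 4 members are shown because Dpt, Cd34 and Dpp4 varied together across libraries and Dlk1 did not follow them. They are RefSeq promoter sequences of GRCm38.p6, 5′ to 3′ on the strand of the gene, and 6 of the 10 members matched that table. Bases inside the GENCODE gene model were left off, 19 for Dpt and 2 for Cd34. Capitals mark the letters CANNTG (the E-box) or TATAAA (the TATA box).
Dpt, chr1:164796413-164796643, plus strand: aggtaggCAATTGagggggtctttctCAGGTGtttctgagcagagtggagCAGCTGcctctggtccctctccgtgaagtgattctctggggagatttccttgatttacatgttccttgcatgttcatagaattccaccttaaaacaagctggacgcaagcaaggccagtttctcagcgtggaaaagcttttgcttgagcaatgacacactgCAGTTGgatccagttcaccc
Cd34, chr1:194938571-194938818, plus strand: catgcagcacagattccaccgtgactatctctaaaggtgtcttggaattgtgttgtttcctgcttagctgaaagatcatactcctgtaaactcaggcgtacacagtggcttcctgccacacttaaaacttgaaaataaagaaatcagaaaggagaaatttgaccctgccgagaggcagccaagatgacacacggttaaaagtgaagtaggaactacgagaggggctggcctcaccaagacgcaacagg
Dpp4, chr2:62412232-62412481, minus strand: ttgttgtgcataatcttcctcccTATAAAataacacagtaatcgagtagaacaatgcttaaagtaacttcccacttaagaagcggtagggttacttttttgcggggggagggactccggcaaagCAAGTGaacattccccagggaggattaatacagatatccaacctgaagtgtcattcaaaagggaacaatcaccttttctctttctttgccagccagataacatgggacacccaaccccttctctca
Dlk1, chr12:109452573-109452822, plus strand: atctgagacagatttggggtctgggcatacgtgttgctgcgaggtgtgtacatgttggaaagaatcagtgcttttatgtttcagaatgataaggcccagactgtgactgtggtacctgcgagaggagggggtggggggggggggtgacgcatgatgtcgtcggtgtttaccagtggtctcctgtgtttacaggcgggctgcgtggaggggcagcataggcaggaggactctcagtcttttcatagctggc

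Over the full 250 bases, both strands and overlapping matches counted, Dpt held 6 E-boxes, 4 of them in the printed stretch. Among 32851 promoters of the table, 0.274% held 6 or more and 66.2% held at least 1. Dpp4 held 1 E-box and 1 TATAAA, which 12.4% of promoters hold, and Cd34 and Dlk1 held neither. The letters GACCACCCA, a binding site of the GLI factors of the Hedgehog pathway, were in 0.225% of promoters and in none of the 6 windows. The GC box GGGCGG and the CCAAT box, in 32.7% and 33.8% of promoters, were in none of the 4 windows shown. These matches describe letters in a window and no binding.

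Levels were compared between genes as normalized counts per kb of exon, which corrects for gene length. Clec3b, which encodes the secreted plasminogen-binding protein tetranectin, had the highest mean level in all 4 groups, from 13386 ± 2601 (SD, n = 3) in P20 Smo* to 20031 ± 3297 in P28 Smo*. Dlk1 had the lowest in all 4 groups, from 14.8 ± 1.5 in P28 WT to 78.4 ± 11.96 in P20 Smo*. In P20 WT the order below Clec3b was Dpt at 15127, Ly6a at 10154, Cd34 at 5879, Gpx3 at 4535, Thy1 at 4405, Pi16 at 1702, Mfap5 at 1459, Dpp4 at 963 and Dlk1 at 51.3. Of these neighbours, Cd34 and Gpx3, Gpx3 and Thy1, and Pi16 and Mfap5 overlapped over their 3 libraries, and the others did not. In P28 WT, Gpx3 stood second at 14242 ± 4402, and each pair of neighbours among Clec3b, Gpx3, Dpt and Ly6a overlapped. In P28 Smo*, Ly6a was second at 12274 ± 2452 and overlapped Dpt at 11751 ± 2458, while Gpx3, at 7490 ± 235, stood below both. In P20 Smo*, Dpt at 8676 ± 185 lay below Clec3b and above Ly6a at 7681 ± 185, with no overlap between these 3. All 10 genes together took between 0.239% and 0.434% of the normalized counts of a library.

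**Figure D1:**
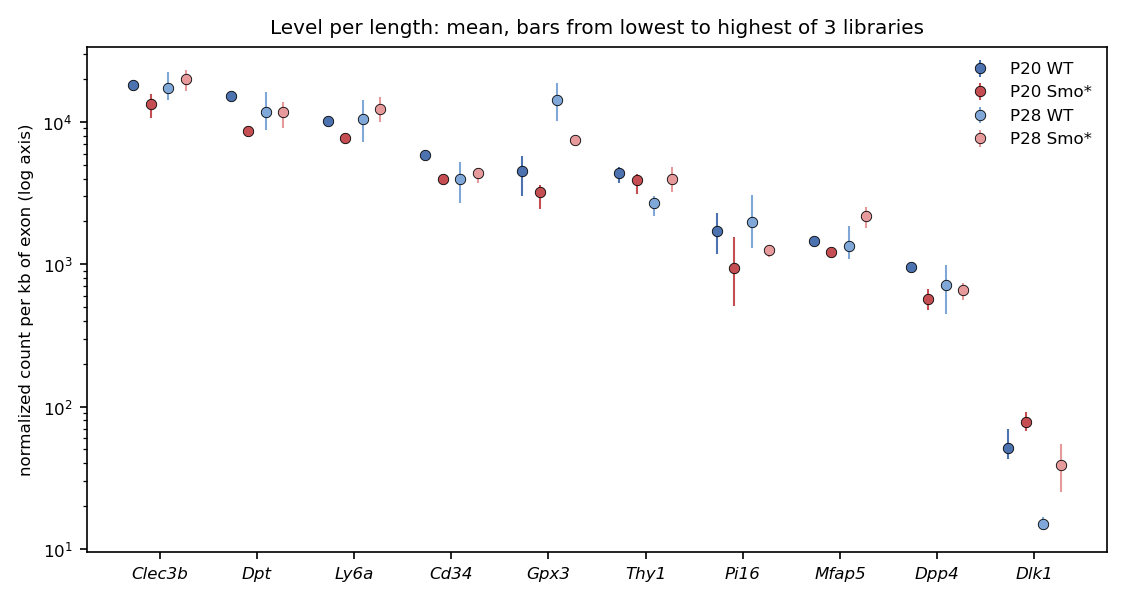
Level of each marker as normalized counts per kb of exon (log axis) in the 4 groups. Points are means and bars run from the lowest to the highest of 3 libraries. Clec3b is at the top and Dlk1 at the bottom in every group, and Gpx3 is higher in both P28 groups than in the P20 groups.

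At P20, the dermal matrix gene Dpt fell in Smo* papilla cells and 8 further markers had lower means than in WT, while Dlk1 had a higher mean. Dpt was the 1 marker of 10 that passed the test, with 0.212% of the 14645 genes tested called lower and 0.696% called in either direction. The fold changes of 9 of the 10 markers were below 0, as were 49.5% of all genes, and their median was -0.47 on the log2 scale against 0.00 for all genes. Values of Smo* lay below all WT values for 6 markers (Dpt, Cd34, Dpp4, Ly6a, Clec3b and Mfap5), as for 8.34% of all genes. At an unadjusted limma p under 0.05 there were 7 markers lower, against 5.95% of all genes, and 1 higher (Dlk1), against 5.44%.

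Dpt encodes dermatopontin, a small protein that binds collagen and decorin. Its normalized counts were 27013, 26400.4 and 24822 in the P20 WT libraries and 15249, 15007 and 14618 in the P20 Smo* libraries. The groups were far apart and each was tight, and the fold change was -0.80 (SE 0.10) on the log2(value + 1) scale with a limma adjusted p of 0.0184. The authors' deposited table also called Dpt at P20, with an adjusted p of 0.0164, and no other marker at that age. The call ended without P20 WT replicate 1 (adjusted p = 0.0633), without P20 WT replicate 2 (0.0974) and without P20 Smo* replicate 2 (0.0763). It also ended without a variance trend (0.0988) and when the spread was shared over 12 libraries (0.129).

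Dpp4, a surface peptidase that marks fascial fibroblasts, was at 6449, 5692 and 6105 in WT and 2997, 3567 and 4206 in Smo* at P20. Every Smo* library was below every WT library, with a fold change of -0.77 (SE 0.14) and a limma adjusted p of 0.0544. With libraries paired as a block by their title numbers, Dpp4 passed the test (adjusted p = 0.0288), as it did without P20 Smo* replicate 3 (0.0303). Pi16, a secreted peptidase inhibitor that marks the adventitial reserve, had 7507, 14572 and 10406 in WT and 4895, 3215 and 9834 in Smo*. Its groups overlapped, since the highest Smo* library lay above the lowest WT library, and its fold change of -0.96 (SE 0.39, limma adjusted p = 0.401) was the largest in size and the least precise of the 10.

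The stem and progenitor antigens Cd34 and Ly6a behaved alike at P20. Cd34, a sialomucin, was at 43299, 44197 and 41071 in WT and 27425, 30879.9 and 28164 in Smo*. Its fold change was -0.57 (SE 0.12) with a limma adjusted p of 0.0846. Ly6a, known as Sca-1, belongs to a family of similar genes, so reads that match several members make its counts uncertain. It had 12277, 12424 and 12004 in WT and 9073, 9188 and 9503 in Smo*, a change of -0.40 (SE 0.09, adjusted p = 0.128). For both genes the WT and Smo* libraries did not overlap, and neither passed the test of limma. DESeq2 on the recovered reads called both at P20, with adjusted p of 0.000200 for Cd34 and 0.0109 for Ly6a, besides Dpt and Dpp4.

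Among the matrix genes, Clec3b had 16698, 19230.3 and 18612 normalized counts in P20 WT and 13699, 10514 and 15623 in P20 Smo*, a change of -0.47 (SE 0.16, limma adjusted p = 0.290). Mfap5, a component of elastic microfibrils, had 5385, 5102 and 5216 in WT and 4005, 4500.1 and 4654 in Smo*, a change of -0.26 (SE 0.10, adjusted p = 0.389). In both genes the 3 Smo* libraries were the lower ones. Thy1, a glycolipid-anchored protein on most fibroblasts, overlapped between groups, with 11099, 14551 and 13927 in WT and 12837, 12875 and 9396 in Smo*. Gpx3, a secreted peroxidase that contains selenium, overlapped too, with 8789, 10443 and 5433 in WT and 6572, 4464 and 6340.2 in Smo*. Their fold changes of -0.18 and -0.47 had 95% intervals of -0.55 to 0.20 and -1.04 to 0.09.

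Dlk1, a transmembrane protein related to the Notch ligands that holds back fat cell formation, went the other way at P20. It was at 241, 240.4 and 390.3 in WT and 383, 430.3 and 517 in Smo*. WT replicate 3 lay just above the lowest Smo* library, and the change of 0.64 (SE 0.22) had a limma adjusted p of 0.327. The library with the highest Dlk1 in each P20 group, replicate 3, was also the one with the highest summed adipocyte genes, at 669 normalized counts per kb in WT and 2925 in Smo*. The lowest sums were 80.2 in WT replicate 1 and 96.1 in Smo* replicate 2. The order did not match beyond the highest library. WT replicate 2, level with WT replicate 1 for Dlk1, had a sum of 369. Smo* replicate 1, the lowest of its group for Dlk1, had a sum of 1382. The part of these sums in the Dlk1 values was not tested.

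**Figure D2:**
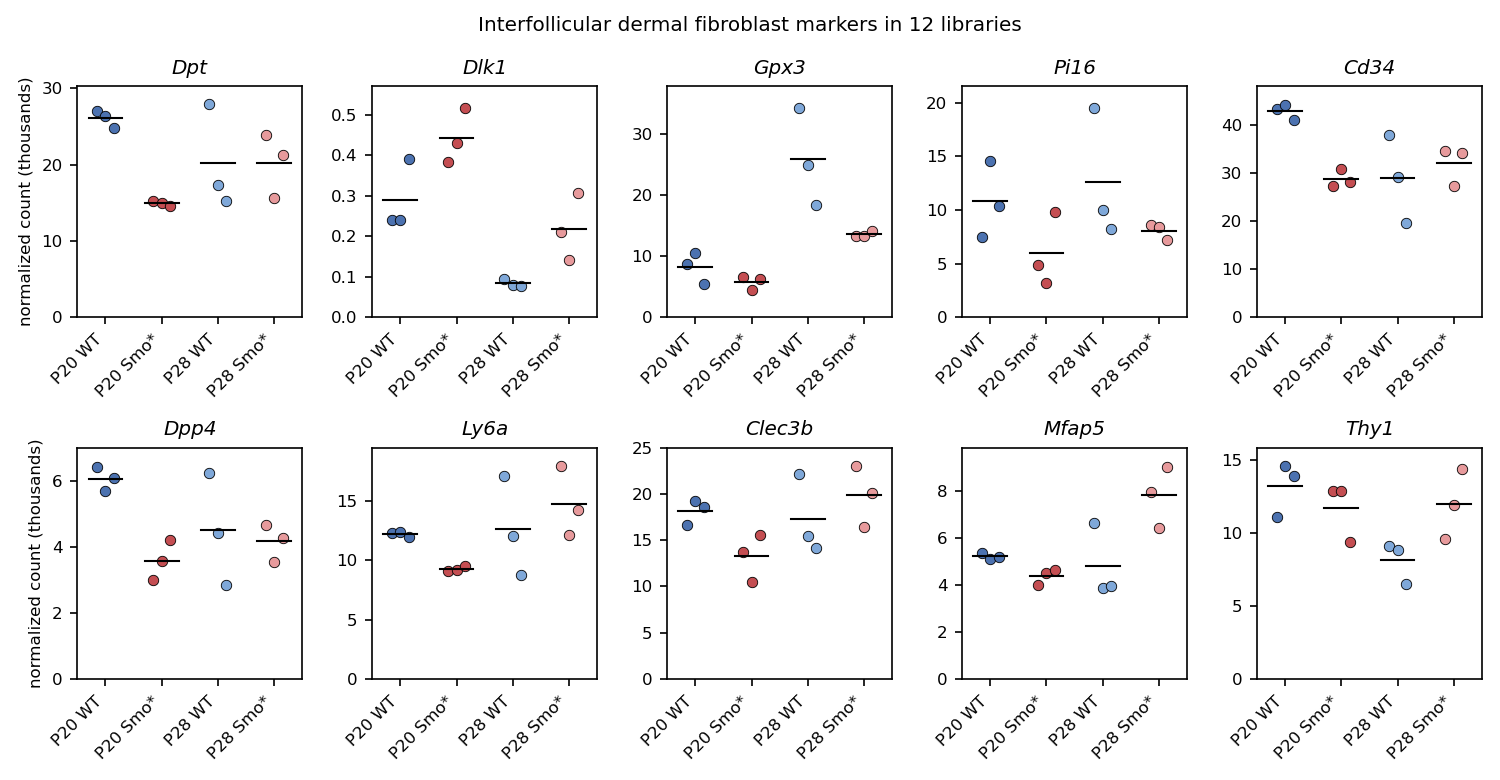
Normalized counts divided by 1000 (linear axis from 0) of each marker in the 12 libraries, by group. Each point is a library in the order of replicates 1 to 3 and each line a group mean. Dpt, Cd34, Dpp4 and Ly6a are lower in all P20 Smo* libraries than in all P20 WT libraries, and replicate 1 is the highest of the P28 WT libraries for all 10 markers.

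At P28, Dlk1 rose and Gpx3 fell in Smo* relative to WT, and the markers lower in Smo* at P20 showed no shared direction. These 2 markers of 10 passed the test, with 8.90% of 14757 genes called, 4.05% higher and 4.85% lower. The fold changes of 3 markers were below 0, as were 50.9% of all genes, and the median over the markers was 0.20 on the log2 scale against -0.01 for all genes. This median moved when 1 library was left out, to 0.41 without WT replicate 1 and to -0.02 without WT replicate 3. It was 0.11 when Smo* replicate 1 was omitted and 0.32 when Smo* replicate 2 was. Groups did not overlap for Dlk1 and Thy1, higher in Smo*, as for 15.6% of genes, and for Gpx3, lower in Smo*, as for 17.8%.

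Dlk1 had 93.9, 80.8 and 77.4 normalized counts in the P28 WT libraries and 209, 141 and 306 in the P28 Smo* libraries. All 3 Smo* values were above all WT values, a change of 1.31 (SE 0.31) with a limma adjusted p of 0.0375. Smo* replicate 3, the highest for Dlk1, is the library with the high adipocyte sum, and replicate 2, the lowest, has the lowest sum of that group. The part of this in the change was not tested. Without replicate 3 the change was 1.03, with an adjusted p of 0.0503.

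Gpx3 was at 34219.7, 24909 and 18335 in P28 WT and 13346, 13321 and 14071 in P28 Smo*. The WT libraries were spread widely and the Smo* libraries were nearly level, all below the lowest WT library. The change was -0.88 (SE 0.22) with a limma adjusted p of 0.0444. The authors' deposited table called both genes as well, Dlk1 with an adjusted p of 0.000115 and Gpx3 with 0.00444. Each call held in 1 of the 6 fits that left a library out, Dlk1 without Smo* replicate 2 (adjusted p = 0.0200) and Gpx3 without WT replicate 3 (0.0256). Both ended without the filter on low genes (Dlk1 0.0529, Gpx3 0.0536) and without a variance trend (0.0699 and 0.106). In the other fits without a library the adjusted p was 0.0503 to 0.131 for Dlk1 and 0.0562 to 0.138 for Gpx3.

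Mfap5 and Thy1 were the next in order. Mfap5 had 6632, 3889.8 and 3968 in P28 WT and 7987, 6434 and 9055 in P28 Smo*. WT replicate 1 lay just above the lowest Smo* library, and the change of 0.73 (SE 0.23) had a limma adjusted p of 0.0902. Thy1 had 9093, 8813 and 6495 in WT and 9576, 11877 and 14390.1 in Smo*, with no overlap, a change of 0.55 (SE 0.19) and an adjusted p of 0.119. The authors' deposited table called both higher in Smo*, Mfap5 with an adjusted p of 0.00851 and Thy1 with 0.0415.

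For the remaining 6 markers the P28 groups overlapped. Dpt had 27914, 17322 and 15218 in WT and 23905, 15608 and 21261 in Smo*, a change of 0.04 with a 95% interval of -0.56 to 0.63. Dpp4 had 6257, 4434 and 2839 in WT and 4678, 3555 and 4290.1 in Smo*, a change of -0.05 (interval -0.66 to 0.56). Cd34 had 38049, 29308 and 19535 in WT and 34567, 27253 and 34264 in Smo*, a change of 0.19 (interval -0.39 to 0.77). In each of these genes WT replicate 1 was the highest of all 6 libraries and WT replicate 3 the lowest. Ly6a had 17141, 12089 and 8760.0 in WT and 17971, 12132 and 14269 in Smo*, a change of 0.26 (interval -0.32 to 0.84). Clec3b had 22207, 15465 and 14159 in WT and 23020.3, 16491 and 20100.5 in Smo*, a change of 0.22 (interval -0.26 to 0.69). Pi16 had 19534, 10030.3 and 8271 in WT and 8588, 8447 and 7174 in Smo*. Its change was -0.55 (interval -1.21 to 0.12), and WT replicate 1 alone stood far above the other 5 libraries.

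**Figure D3:**
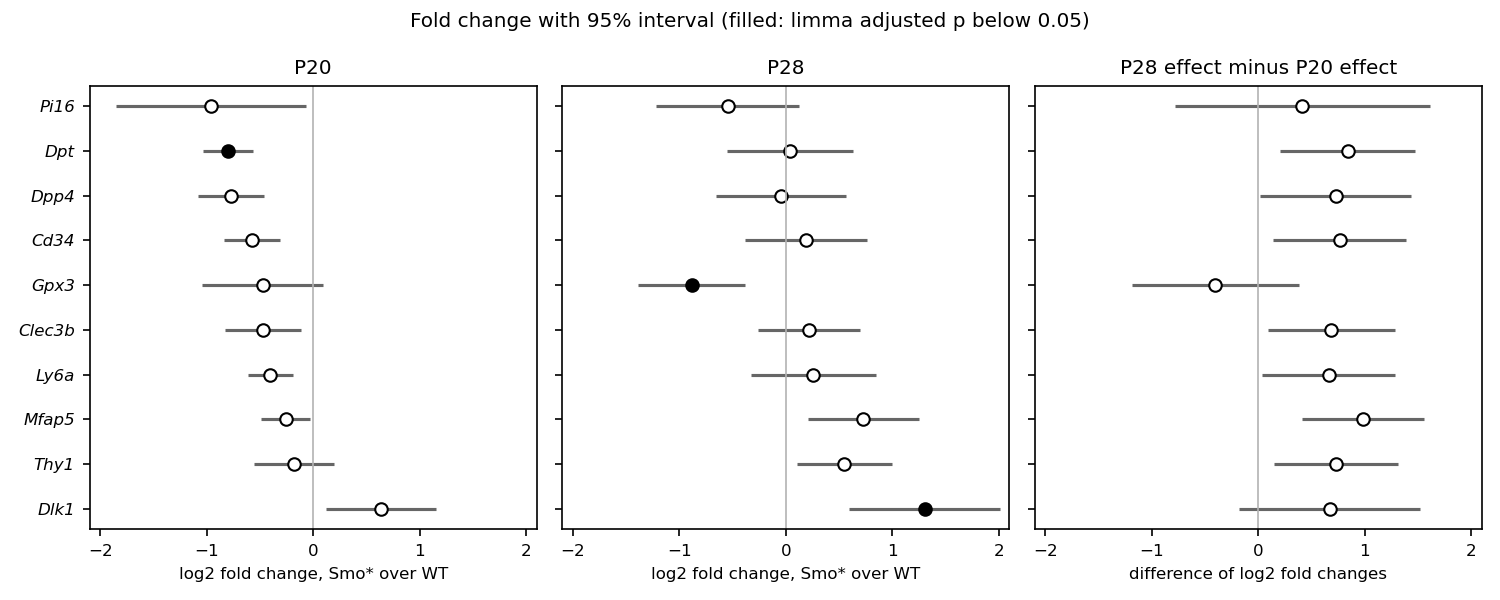
Fold change of Smo* over WT at P20 and at P28, and the difference between the 2 effects, on the log2 scale for each marker with 95% intervals from limma. Filled points passed an adjusted p of 0.05: Dpt at P20, and Dlk1 and Gpx3 at P28. No marker passed for the difference, where 9 of 10 points lie above 0.

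The difference between the P28 and P20 effects was tested for each marker as an interaction over 12 libraries. None of the 10 markers passed the limma test, with 4.72% of 14790 genes called, and edgeR called 0 and DESeq2 called 1 (Mfap5, adjusted p = 0.0167). At an unadjusted limma p under 0.05 there were 7 markers, all with a higher value at P28, against 10.7% of all genes in that direction. The difference was largest for Mfap5, at 0.99 (SE 0.26, limma adjusted p = 0.0536), and was 0.84 (SE 0.29, adjusted p = 0.120) for Dpt. It was above 0 for 9 markers, while 51.6% of all genes lay below 0, and Gpx3 was the exception at -0.41 (SE 0.36). Without P28 WT replicate 1, 4 markers passed: Mfap5 (adjusted p = 0.00626), Dpt (0.0211), Cd34 (0.0433) and Ly6a (0.0472). A smaller effect at P28 than at P20 was thus not established for Dpt with all libraries in the fit.

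By the median over these genes, the WT libraries at P28 differed among themselves more than those of any other group. The coefficient of variation over 3 libraries had a median of 32.2% over the 10 markers in P28 WT, against 9.99% for 9242 genes of like level. It was 6.75% in P20 WT, 16.1% in P20 Smo* and 16.7% in P28 Smo*. Dlk1, Gpx3, Pi16 and Thy1 each varied more in another group, and Dlk1 had 10.4% in P28 WT and 37.8% in P28 Smo*. Replicate 1 was the highest P28 WT library for 10 of 10 markers, and replicate 3 the lowest for 9. This order was not particular to the markers. Replicate 1 was also the highest for 12 of 15 pan-fibroblast, 10 of 13 fascia and 7 of 8 reticular genes. Replicate 3 was the lowest for 13, 11 and 4 of these. Of 10 papillary genes, replicate 1 was the highest for 3 and replicate 3 the lowest for 5. In the same group replicate 1 was the lowest for 13 of 17 dermal papilla genes and replicate 3 the highest for 9. In P28 Smo*, replicate 2 was the lowest for 8 of 10 markers and the highest for 14 of 17 papilla genes. It was also the lowest for 11 of 15 pan-fibroblast, 8 of 13 fascia, 6 of 8 reticular and 4 of 10 papillary genes. Within each P28 group, the library lowest for most markers was thus the highest for most papilla genes. Smo* replicate 3 was the lowest for 14 of 17 papilla genes and the highest for 4 of 10 markers, against 6 of 10 for Smo* replicate 1. The part of this in the results at P28 was not tested.

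The summed level of the 10 markers was 60926, 66346 and 60526 normalized counts per kb in P20 WT and 44285, 40326 and 46211 in P20 Smo*. The mean ratio of Smo* to WT at P20 was 0.697. In the P20 libraries the sum of papilla genes was 15113 to 19825 in WT and 17924 to 27408 in Smo*. The marker sums were separate between the P20 genotypes, and the papilla sums overlapped. Single papilla genes did separate at P20. Smo* values lay above all WT values for 8 of the 17, as for 8.04% of all genes, and below them for 1, as for 8.34%. At P28 the marker sum was 85857, 59747 and 48199 in WT and 71638, 54505 and 66086 in Smo*, a mean ratio of 0.992. This ratio joins changes in both directions. The mean of Gpx3 per kb was 14242 in P28 WT and 7490 in P28 Smo*. That of Clec3b was 17417 and 20031, and that of Ly6a 10509 and 12274. Pi16 and Dpp4 also had lower means in P28 Smo*, and the other markers had higher ones. The corresponding papilla sums were 100571, 109339 and 123990 in WT and 50465, 81180 and 12577 in Smo*.

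**Figure D4:**
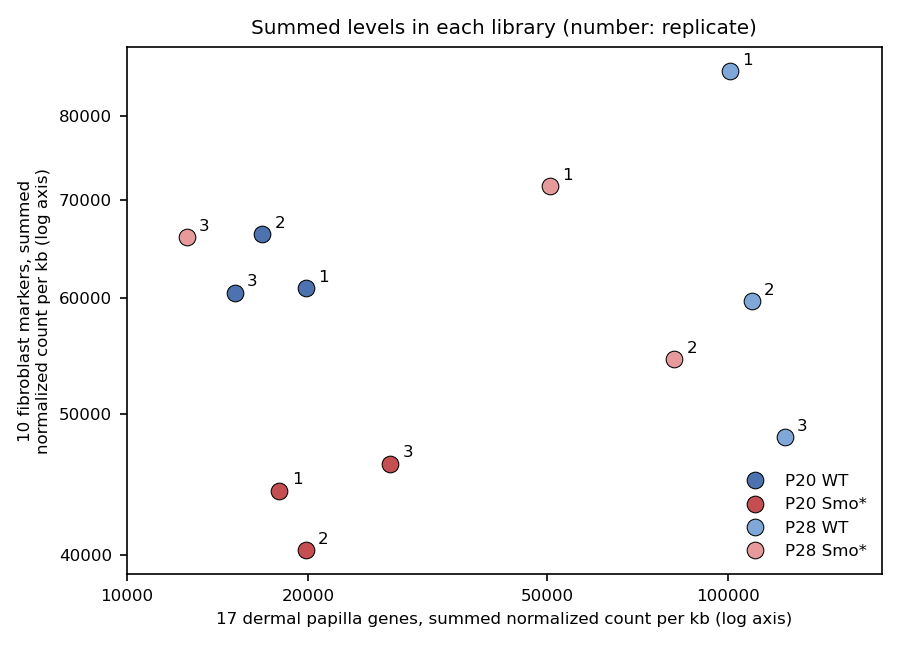
Summed normalized counts per kb of the 10 fibroblast markers against those of 17 dermal papilla genes in each of 12 libraries, both on log axes. Numbers give the replicate. The P20 Smo* libraries have the lowest marker sums, and in P28 WT the marker sum is highest in replicate 1, where the papilla sum is lowest.

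Between ages in WT, Gpx3 rose and Dlk1, Thy1 and Cd34 fell from P20 to P28. These 4 of 10 markers passed, with 25.4% of all genes called, 13.5% higher and 11.9% lower. Gpx3 changed by 1.66 (SE 0.26, limma adjusted p = 0.000710) and Dlk1 by -1.74 (SE 0.28, adjusted p = 0.000831), each with no overlap between the ages. Both calls held in 21 of 21 alternative fits. Thy1 changed by -0.70 (SE 0.19, adjusted p = 0.0173), and its call ended without P20 WT replicate 2 (0.0670), P20 WT replicate 3 (0.0608) or P28 WT replicate 3 (0.0816). Cd34 changed by -0.62 (SE 0.20, adjusted p = 0.0415), a call that held in 10 of 21 fits and ended in 8 of the 12 that left a library out. Dpt at -0.42 and Dpp4 at -0.50 had adjusted p of 0.157 and 0.131, and Ly6a, Clec3b, Mfap5 and Pi16 lay between -0.16 and 0.17.

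Between ages in Smo*, Gpx3 and Mfap5 rose. These 2 of 10 passed, with 3.46% of all genes called and 1.98% called higher. Gpx3 changed by 1.25 (SE 0.26, limma adjusted p = 0.0266) and Mfap5 by 0.82 (SE 0.19, adjusted p = 0.0383). The Gpx3 call held in 7 of the 12 fits that left a library out and the Mfap5 call in 5, and both ended without a variance trend (0.0590 and 0.0740). Values at P28 lay above all P20 values for 5 markers, as for 12.2% of genes, and below them for Dlk1, as for 12.1%. Dlk1 changed by -1.07 (SE 0.28, adjusted p = 0.0531), Ly6a by 0.66 (SE 0.20, adjusted p = 0.0881) and Clec3b by 0.59 (SE 0.19, adjusted p = 0.104). The comparisons by genotype and by age share libraries.

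The other genes of the dermal fibroblast lineages gave a reference for the markers. At P20, 13 of 13 fascia and adventitia genes had fold changes below 0, with a median of -0.44, and 1 of them fell: Anxa3, an annexin, by 1.32 on the log2 scale (limma adjusted p = 0.0265). Of 15 pan-fibroblast genes 14 were below 0, with a median of -0.35. The limma test called 0 of them, with 4 lower at an unadjusted p under 0.05. Values of Smo* lay below all WT values for 7 of the 13 fascia and 9 of the 15 pan-fibroblast genes, as for 8.34% of all genes. The medians of 10 papillary and 8 reticular genes were both -0.01, and in these lists 1 gene was called, Mest, which rose by 1.92 (adjusted p = 0.00296). The fascia and pan-fibroblast lists thus had medians near that of the 10 markers, and the papillary and reticular lists did not. Lists of other cells also had P20 medians below 0, -0.53 for endothelial, -0.77 for keratinocyte and -0.30 for immune genes. Dermal sheath and smooth muscle genes had -0.29, Schwann genes -0.20 and pericyte genes -0.16. The papilla, adipocyte and melanocyte medians were above 0, at 0.37, 1.33 and 0.13. A P20 median below 0 was thus not particular to fibroblast lists.

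At P28, of 10 papillary genes 5 fell and 1 rose, with a median of -0.77. The changes were -2.70 for the collagen Col13a1, -1.59 for Rspo1, a secreted activator of Wnt signalling, -1.46 for the Wnt target Axin2 and -1.39 for the Wnt inhibitor Apcdd1, with limma adjusted p of 0.000482, 0.00689, 0.0112 and 0.000578. Reticular genes had a median of 0.35, and Mest and the fatty acid receptor Cd36 rose, by 2.56 and 1.48 (adjusted p = 0.00514 and 0.0467). The 13 fascia and adventitia genes had a median of 0.26, with 4 below 0, and limma called 0 of them, with 0 at an unadjusted p under 0.05. In the pan-fibroblast list, Fbln2 rose while Fap and Pdgfra fell, with changes of 0.90, -1.34 and -0.57 (adjusted p = 0.0301, 0.00352 and 0.0408). For the difference between the P28 and P20 effects of Smo*, limma called 4 papillary genes with a negative value, Axin2 at -1.70, Rspo1 at -1.67, Col13a1 at -1.63 and Apcdd1 at -0.80, and Sema3c, Fbln2 and Fbln1 with a positive value, from 0.84 to 1.24 (adjusted p at most 0.0459).

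Between ages in WT, 4 of 10 papillary genes rose and 2 fell, led by Rspo1 at 2.38, Axin2 at 1.48, Col23a1 at 1.57 and Col13a1 at 1.19. Of 8 reticular genes 4 fell: Cd36 at -1.34, Tnxb at -0.92, Mgp at -0.85 and Aspn at -0.80. In the fascia list Col15a1 rose by 0.67. Of 15 pan-fibroblast genes 3 rose and 5 fell, led by S100a4 at -1.47, Fbln1 at -0.97, Fap at 1.05 and Fstl1 at 0.71. Between ages in Smo*, Anxa3 and Emilin2 of the fascia list and Serpinf1 of the pan-fibroblast list rose, by 1.39, 0.76 and 0.69. The limma adjusted p of these genes was at most 0.0499, that of Anxa3.

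Markers of other cells that share Cd34, Ly6a and Thy1 had lower summed levels per kb than the fibroblast markers in every library. Such sums over different genes do not give the share of cells, and neurons had no list here. Summed normalized counts per kb of 8 endothelial genes were 562 to 924 in P20 WT, 638 to 731 in P20 Smo*, 420 to 767 in P28 WT and 917 to 1513 in P28 Smo*. Of these 8 genes 3 rose at P28, the junction proteins Cdh5 and Pecam1 by 4.37 and 1.53 and Vwf by 1.93, with limma adjusted p of 0.00125, 0.0146 and 0.0105, and none was called at P20. Sums of 9 immune genes were 117 to 483 over the 12 libraries. The T cell gene Cd3g was at 0 in all of them, while the T cell gene Cd3e ranged from 0 to 12.8 normalized counts. Sums of 8 keratinocyte genes were 160 to 791. In Smo* at P28, 2 of these genes rose, the integrin Itga6 by 1.32 and the bulge stem cell gene Lgr5 by 1.23 (limma adjusted p = 0.0117 and 0.0156). The list as a whole did not rise: its median fold change at P28 was -0.43, with 5 of the 8 genes below 0 and 0 called lower. Among 17 papilla genes, Hhip, Sox18 and Foxd1 rose at P20, by 3.53, 3.14 and 1.40 (adjusted p = 9.28e-05, 0.0309 and 0.0354). At P28, 2 of them rose and 5 fell, led by Foxd1 at 3.12, Sox18 at 1.93, Corin at -4.65 and Lef1 at -1.99. Of 10 dermal sheath and smooth muscle genes, Myocd rose by 1.84 at P20, and at P28 Itga8 changed by -1.56, Cnn1 by 1.21 and Mylk by 0.79. The pericyte gene Rgs5 changed by -0.65 at P28 (adjusted p = 0.0424), the highest of the P28 genes named in these lists. The part of these cells in the values of Cd34, Ly6a and Thy1 was not tested.

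Across 12 libraries the markers formed looser and tighter pairs, given here as a description since genes of a library share its size factor. Cd34 and Dpp4 had a Pearson r of 0.91, Dpt and Dpp4 0.89, Ly6a and Clec3b 0.89, and Dpt and Cd34 0.86. Dlk1 and Gpx3 had -0.89, and Dlk1 and Dpt -0.09. Among 12479 other genes with a mean of at least 50, the pattern of the mean of the 10 markers was most like that of Fndc1 (r = 0.94), and Ptgis also had 0.94. Among the genes most like Dpt were Itga2 (0.91) and Ptgis (0.90), and Dlk1 was most like Nrp2 (0.97), Srsf6 (0.96) and Sox9 (0.96), and Gpx3 like Ifi27l2a (0.96), Ctsb (0.96) and Tdo2 (0.95). Fndc1, for one, was at 14422 to 14848 normalized counts in P20 WT and 9330.4 to 9547 in P20 Smo*, and at 14671, 9858 and 8461 in P28 WT. In P28 Smo* it was at 16148, 12012 and 17043. Its likeness to the markers follows from its choice.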

How the data were processed

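RNA of FACS-sorted dermal papilla cells was depleted of ribosomal RNA and sequenced with a directional kit, per the labels' protocols. The submitters' processing notes list Trimmomatic, TopHat2 (version 2), HTSeq and DESeq2, with mm10 and GRCm38.p4 as builds and no roles. Use of the strand in counting is not stated, so overlapping or antisense genes cannot be told apart. The 2 deposited tables hold normalized counts (a signal) of 25887 genes. The authors divided the counts of each library by a size factor, as seen from the values, 100% of which gave whole reads (tolerance 0.01) when divided by that of 1 read. The mean column in both equals that over 12 libraries, so the tables share 1 scale. The authors' log2 fold changes with standard errors (log2) set WT over Smo* and are turned around here. Their test statistic (a score) was not used, and the authors' adjusted p-value served as an alternative. GENCODE M21 (GRCm38) gave symbols for 98.7% of identifiers and the union exon lengths behind levels per kb, which understate genes with long rare exons. 0 columns were left unused.

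The test was limma 3.58.1 (R 4.3.3) with a trended variance prior on log2(value + 1), for genes averaging at least 10, with Benjamini-Hochberg adjustment over all genes and a threshold of 0.05. Fits used the 6 libraries of an age, or all 12 for ages and the interaction. This scale understates the change of low genes. The limma test by genotype was also run on counts simulated for each gene on its own. That run held no differences in composition between libraries of a group. It therefore cannot test calls that depend on a single library. Alternatives were TMM, quantile normalization, no filter or a minimum mean of 50, 0.5 or 5 as pseudocount, an untrended prior, edgeR 4.0.16 and DESeq2 1.42.0 on the recovered reads, 1 limma fit of 12 libraries, a replicate block and leaving out each library. Replicates are numbered in accession order. For the block, each P20 Smo* library was paired with the WT library of nearest title number, and deviations of these pairs from group means correlated by 0.227, 0.128 and 0.289, each the highest of its libraries. What the numbers mean is not stated. At P20 the block raised the called genes from 102 to 239.

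All 10 markers are named in each comparison, up to 4 called genes of each other list by adjusted p (between ages and for the interaction, only of the dermal fibroblast lists), and 3 most alike genes for the mean of the markers and for each marker called between genotypes. A gene that this rule names is not reported here. The members and lists were chosen with earlier results of these data known.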

Additional observations from a re-analysis of the deposited data

How the results depend on the processing

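Over 50 results (10 markers in 5 comparisons) and 1000 alternatives, 905 kept direction and side of the threshold, 49 lost the call, 26 gained it and 20 changed sign, all of these for markers that were not called. The number of markers called at P20 was 1, and became 0 without a variance trend, 4 with DESeq2, 2 with the replicate block and 0 with limma over 12 libraries. At P28 it was 2, and became 0 without the filter, 0 without a variance trend, 4 with DESeq2, 0 with the replicate block and 4 by the authors' deposited table. Title numbers did not pair the P28 libraries (correlations of -0.06, 0.18 and -0.04), and not every P28 library correlated best with its nearest number. P28 libraries were paired by nearest numbers first. The pair with 0.18, WT replicate 2 and Smo* replicate 1, joined the libraries left over, and these do not have nearest numbers. From P20 to P28 in Smo* it was 2, and became 0 without a variance trend and 5 with DESeq2. For the interaction it was 0, and 1 with DESeq2. Leaving out 1 library gave 0 to 2 at P20, 0 to 1 at P28, 2 to 6 between ages in WT, 0 to 3 between ages in Smo* and 0 to 4 for the interaction. The cause was not tested. Over all genes, the P20 count of 102 became 8 without WT replicate 2, 9 without a variance trend and 480 with DESeq2.

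Some changes that were not called took either sign when 1 library was left out. At P28 these were Dpt (-0.14 to 0.30), Dpp4 (-0.34 to 0.23) and Cd34 (-0.069 to 0.41). Between ages they were Ly6a (-0.25 to 0.23), Pi16 (-0.20 to 0.42) and Clec3b (-0.29 to 0.030) in WT and Thy1 (-0.13 to 0.17) in Smo*. Ly6a in WT also became 0.016 with quantile normalization, 0.051 with edgeR and 0.050 with DESeq2. Quantile normalization gave -0.095 for Cd34 and -0.074 for Thy1 between ages in Smo*, and moved the median of the markers at P20 from -0.47 to -0.31. Every library held 36323058 or more reads, Dlk1 had the fewest reads of the markers, and neither depth nor the number of libraries was varied as a limit beyond leaving out 1 library.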
